A study of Mus musculus with 22 samples.

Results

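The 40 genes described here encode ribosome biogenesis and nucleolar proteins, and they were chosen by name, with earlier results of these data known. All 40 were among the 18487 genes of the expression table, and all 40 were among the 17275 genes that could be tested. They comprised 6 genes for transcription of ribosomal RNA (Polr1a, Polr1b, Polr1c, Rrn3, Ubtf and Mybbp1a), 5 for abundant nucleolar proteins (Ncl, Npm1, Nolc1, Gnl3 and Ddx21), 4 for box C/D small nucleolar ribonucleoproteins (snoRNPs; Fbl, Nop56, Nop58 and Rrp9), 3 for box H/ACA snoRNPs (Dkc1, Gar1 and Nhp2), 12 for assembly of the small subunit and 10 for assembly of the large subunit. The RNA came from E14, a line of mouse embryonic stem cells, and poly(A) RNA was sequenced from 22 libraries, 2 for each of 11 groups. The groups were labelled Bromosporine, which binds bromodomains, Chaetocin, which inhibits histone lysine methyltransferases, CPTH2 and Garcinol, which inhibit histone acetyltransferases, DZNep, which inhibits S-adenosylhomocysteine hydrolase and thereby acts on many methyltransferases, IOX1, which inhibits JmjC histone demethylases and related oxygenases, MS023, which inhibits type I arginine methyltransferases, OICR, for which the label gave no fuller name, UNC0379, which inhibits the histone methyltransferase SETD8, Valproate, which inhibits histone deacetylases, and NC. NC, a label that names no compound, served as the reference. Doses and exposure times were not in the labels, so the compounds are set side by side without regard to either. They also did not say that the 2 libraries of a group came from separate cultures, so the p-values measure only the spread between these libraries, which may be technical.

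Ribosomes are assembled in the nucleolus, where RNA polymerase I transcribes a long precursor of the ribosomal RNAs. Small nucleolar RNAs guide Fbl, a ribose methyltransferase, and Dkc1, a pseudouridine synthase, to modify this precursor, while a series of assembly factors folds, cuts and exports the small and the large subunit separately. Embryonic stem cells divide quickly and make many ribosomes, and Myc proteins are known activators of genes of this pathway. The libraries hold messenger RNA of the factors, and neither ribosomal RNA nor ribosome assembly was measured.

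The promoters of 35 of the 40 genes were in the RefSeq promoter table (build GRCm38.p6), as windows of 300 bases that ran from 250 bases before the annotated start to 50 after it. Of the 35 genes, 7 (20%) held the E-box CACGTG, which Myc proteins bind, and this compares with 10.9% of the 12329 genes of the expression table that had a window. The ETS core CCGGAAG was found in 11 of the 35 (31.4%) and in 17.2% of those 12329 genes. Both strands were searched, and in the 3 genes with both motifs (Rrn3, Nop2 and Ltv1) the motifs did not overlap. A match is a description of letters and not a measured binding site. The upstream 250 bases are shown 5′ to 3′ on the strand of the gene for 4 genes that rose with DZNep, to show promoters with and without a match. The ETS core, on either strand, is in capitals. Gar1 (chr3:129831397-129831646, minus strand) held it at position -43, counted from the start, and Nhp2 (chr11:51619523-51619772, plus strand) at position -23. Nop16 (chr13:54590075-54590324, minus strand) and Polr1b (chr2:129100746-129100995, plus strand) held neither motif in the window. Positions and stretches follow the RefSeq starts. In GENCODE, Nhp2 and Nop16 start further upstream, so the ends of their stretches, with the Nhp2 match, lie within the annotated gene.
Gar1: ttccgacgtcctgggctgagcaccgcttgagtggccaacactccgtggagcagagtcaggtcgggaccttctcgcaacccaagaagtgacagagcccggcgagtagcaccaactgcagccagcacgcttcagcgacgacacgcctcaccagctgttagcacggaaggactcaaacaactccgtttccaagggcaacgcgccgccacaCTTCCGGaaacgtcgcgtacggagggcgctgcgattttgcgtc
Nhp2: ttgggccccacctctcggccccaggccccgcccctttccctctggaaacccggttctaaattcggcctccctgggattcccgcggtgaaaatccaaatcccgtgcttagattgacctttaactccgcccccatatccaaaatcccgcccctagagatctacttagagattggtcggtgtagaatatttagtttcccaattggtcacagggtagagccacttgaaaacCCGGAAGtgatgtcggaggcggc
Nop16: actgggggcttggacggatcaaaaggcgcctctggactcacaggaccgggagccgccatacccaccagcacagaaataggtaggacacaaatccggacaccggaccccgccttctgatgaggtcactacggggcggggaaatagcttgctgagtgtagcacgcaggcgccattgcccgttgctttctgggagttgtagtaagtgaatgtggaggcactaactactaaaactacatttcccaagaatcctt
Polr1b: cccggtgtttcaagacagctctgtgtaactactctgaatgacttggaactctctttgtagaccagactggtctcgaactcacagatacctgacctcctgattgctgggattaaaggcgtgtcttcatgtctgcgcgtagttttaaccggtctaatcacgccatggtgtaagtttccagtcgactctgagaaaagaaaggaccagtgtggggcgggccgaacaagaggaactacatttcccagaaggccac

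Levels of different genes were compared as the NC value divided by the length of the longest annotated transcript in kilobases. On this scale Npm1, a histone and ribosome chaperone of the nucleolus, stood highest, at 41470 per kilobase in both NC libraries. The next was Nhp2, a core protein of box H/ACA snoRNPs, at 6469 and 7498 per kilobase. Mybbp1a, a nucleolar protein that binds RNA polymerase I factors, followed at 4658 and 5346, and its range overlapped that of Rrp9 at 4624 and 4812. Noc3l, a factor of early large-subunit assembly, stood lowest at 215 and 232 per kilobase. The order depends on which transcript is used, since Fbl moved from 4565 ± 122 (SD, n = 2) to 9195 ± 246 (SD, n = 2) per kilobase when the longest transcript annotated as protein coding was taken, a choice made after seeing the data that placed Fbl before Nhp2 and Mybbp1a. Part of the sequence of some genes also occurs in transcripts of other genes, so their values are uncertain. Of the stretches of 31 bases in the longest transcript, 72.9% were shared for Ddx18, 45.5% for Npm1, 36% for Pes1, 24.1% for Nop56, 20% for Noc2l and 15.8% for Rrs1. Exons of 15 of the 40 genes overlap those of a gene on the opposite strand, among them Noc2l (with Samd11), Nhp2 (Rmnd5b), Rrp9 (Parp3), Bop1 (Mroh1), Mybbp1a (Spns2), Dkc1 (Mpp1), Bysl (Ccnd3), Wdr12 (Carf), Gnl3 (Pbrm1), Nop56 (Idh3b) and Heatr1 (Lgals8), and whether the counting used strand was not stated.

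The comparisons ask which of the 40 genes changed with each compound. Values are normalized read counts as deposited, which the normalization brought to nearly the same total in every library (38403767 to 38419709), so that the depth behind them is not known. A change is a difference of mean log2(value + 1), tested with limma over all genes and adjusted by the Benjamini-Hochberg method. With no compound did any of the 40 genes pass both an adjusted p under 0.05 and a fold change over 2, against 11.4% of all genes tested with DZNep, 5.28% with Valproate, 3.34% with Bromosporine, 0.973% with MS023, 0.388% with OICR, 0.116% with IOX1, 0.0174% with Chaetocin, 0.00579% with CPTH2 and with Garcinol, and 0% with UNC0379. Without the limit on fold, 10 of the 40 genes were higher with DZNep and 0 were lower, 1 was higher with MS023 and 1 was higher with Valproate. The share of all genes at this threshold was 10.7% higher and 12.8% lower with DZNep, or 23.6% in either direction, so the 25% of the 40 genes that passed was close to the share in either direction and above the share of higher genes. At an unadjusted p under 0.05 there were 15 of the 40 genes with DZNep, 6 with Valproate and 5 with MS023, beside 35.4%, 24.1% and 15.0% of all genes tested. The median change of the 40 genes with DZNep was 0.21 on the log2 scale, with a range from -0.49 to 0.97, beside -0.04 over all genes tested. It was 0.09 without DZNep replicate 1, and between the libraries of the same number it was 0.36 for number 1 and -0.01 for number 2.

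**Figure D1:**
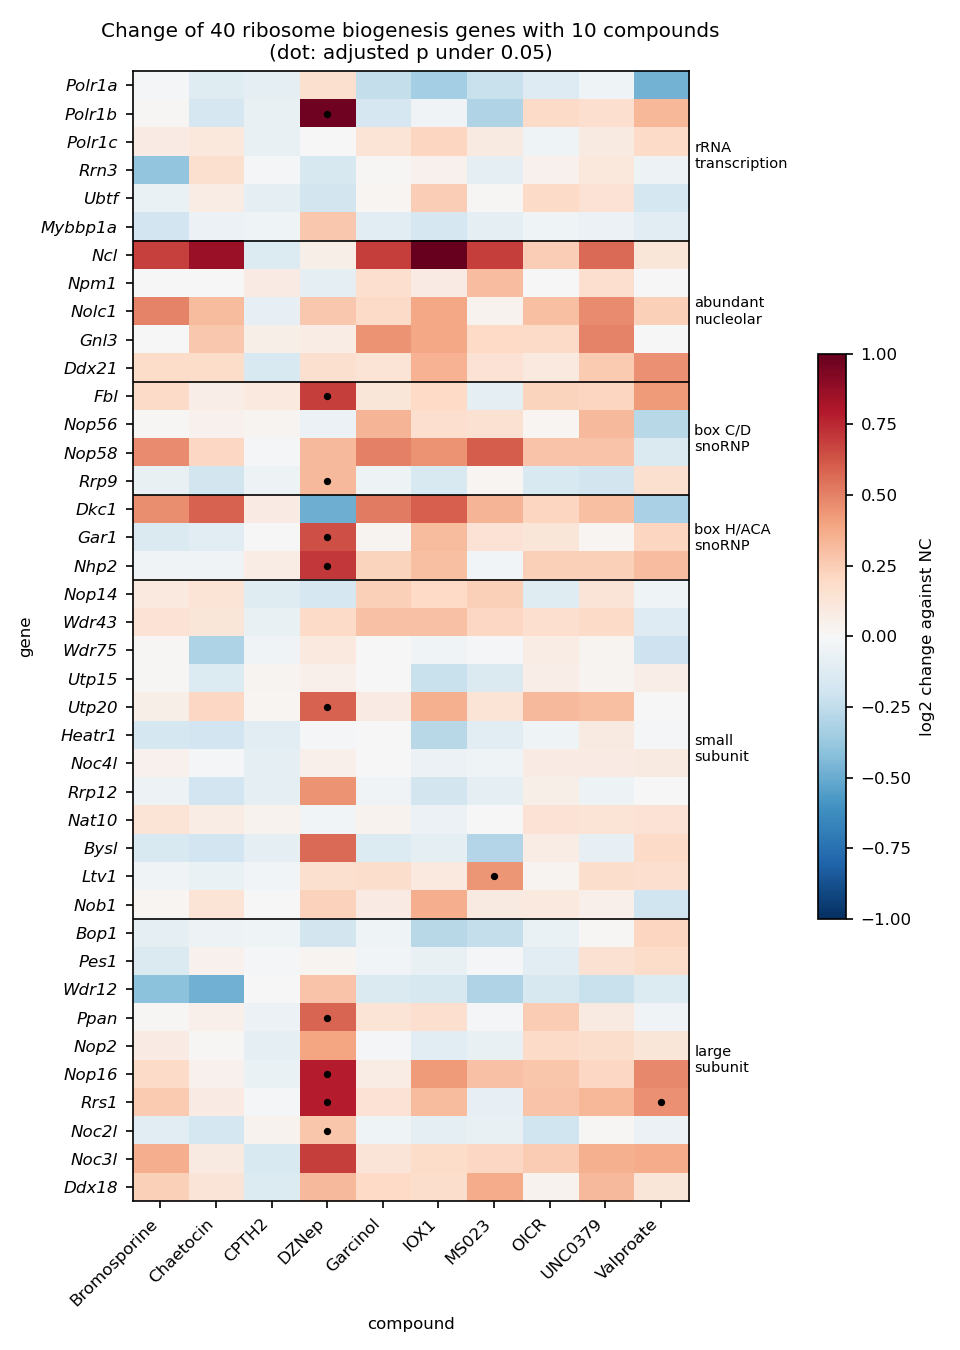
Change of the 40 genes (rows, grouped by role) with each of the 10 compounds (columns), as the log2 difference from NC in colour. Dots mark an adjusted p under 0.05 (limma). The dots fall on 10 genes with DZNep, on Ltv1 with MS023 and on Rrs1 with Valproate.

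With DZNep, 1 of the 6 genes of ribosomal RNA transcription rose. This was Polr1b, which encodes a catalytic subunit of RNA polymerase I. Its values were 5821 and 6755 with DZNep and 2701 and 3769 in NC. Both DZNep libraries lay above the other 20 libraries, whose highest value was 5210, in a Valproate library. The change was 0.97 ± 0.29 (SE) on the log2 scale (limma, adjusted p = 0.0250), the highest of the changes of the 40 genes, over all compounds, that passed the test. Polr1a, the largest subunit of the same enzyme, had 7587 and 7776 with DZNep and 6755 and 7025 in NC (log2 change 0.16, limma, adjusted p = 0.574). Mybbp1a had the same value, 26685, in both DZNep libraries and 20719 and 23780 in NC (log2 change 0.27, limma, adjusted p = 0.0919). For these 2 genes, too, the DZNep libraries lay above all of the other 20, although neither passed the test against NC. Polr1c, a subunit shared with RNA polymerase III, Rrn3, which brings the polymerase to the promoter, and Ubtf, which binds the ribosomal DNA, had log2 changes of 0.00, -0.16 and -0.18, and their DZNep libraries overlapped those of NC.

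None of the 5 abundant nucleolar proteins passed the test with DZNep, where the lowest adjusted p was 0.382 and 0 of the 5 had an unadjusted p under 0.05. The 2 DZNep libraries differed widely for some of them. Ncl, which encodes nucleolin, was at 59584 and 20763, the latter being the lowest value of all 22 libraries, shared with a CPTH2 library. Gnl3, which encodes nucleostemin, was at 4732 and 2464, and Nolc1, a chaperone of snoRNPs, at 4474 and 3200. In NC these genes were at 36708 and 30913, at 3427 and 3080, and at 2647 and 3729. The DZNep library numbered 1 therefore lay above both NC libraries for all 3, while the library numbered 2 lay below both for Ncl and Gnl3 and between them for Nolc1. Npm1 had only 4 distinct values in the 22 libraries (59550, 67722, 76167 and 92442), since the normalization gives libraries the same set of values, and fine differences in this gene cannot be seen. Ddx21, an RNA helicase, had a log2 change of 0.16 (limma, adjusted p = 0.593).

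Of the proteins that bind modification guide RNAs, Fbl and Rrp9 of the box C/D class and Gar1 and Nhp2 of the box H/ACA class rose with DZNep. Fbl (chr7:28169710-28179269 in mm10) was at 17254 and 18342 with DZNep, against 10799 and 11215 in NC, a change of 0.69 ± 0.13 (SE, limma, adjusted p = 0.00208). Nhp2 (chr11:51619735-51623714) was at 11077 and 12666 against 6741 and 7813, a change of 0.71 ± 0.12 (SE, limma, adjusted p = 0.00105). Gar1 (chr3:129824912-129831396), the glycine- and arginine-rich protein of the same particle, was at 3673 and 4206 against 2191 and 2887, a change of 0.64 ± 0.15 (SE, limma, adjusted p = 0.00649). For all 3 genes the DZNep libraries lay above the other 20 libraries. Rrp9, a protein specific to the box C/D particle that takes part in cutting the precursor, was at 8293 and 10910 against 7450 and 7752 (0.32 ± 0.105, SE, limma, adjusted p = 0.0388). Its lower DZNep value was equalled by 1 Valproate library and exceeded by the other.

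The other 3 of the 40 genes that encode snoRNP proteins, Dkc1, Nop58 and Nop56, did not pass the test with DZNep. Dkc1, the pseudouridine synthase that works with Gar1 and Nhp2, was at 5722 and 2765 with DZNep, against 6055 and 5165 in NC, the most negative change of the 40 genes with DZNep (log2 change -0.49 ± 0.41, SE, limma, adjusted p = 0.419). The value of 2765 was the lowest of the 22 libraries, while the other DZNep library lay between the NC libraries. Nop58 was at 15374 and 8544 against 9195 and 9098 (log2 change 0.33, limma, adjusted p = 0.385), so its DZNep libraries stood on either side of NC. Nop56 had a log2 change of -0.06.

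Among the 12 genes of the small subunit, only Utp20 passed the test with DZNep. Utp20, a large scaffold protein of the early precursor of this subunit, was at 8553 and 5993 with DZNep, against 4231 and 5321 in NC (0.59 ± 0.18, SE, limma, adjusted p = 0.0304). Its library numbered 2 was within the range of the other compounds. Bysl, needed for maturation of the subunit, was at 4253 and 4858 against 2677 and 3535 (log2 change 0.56, limma, adjusted p = 0.155), and Rrp12, an export factor, was at 4075 in both DZNep libraries against 2629 and 3372 (log2 change 0.45, limma, adjusted p = 0.109). For Bysl and Rrp12 both DZNep libraries lay above all of the other 20. Nob1, the nuclease that makes the final cut of the small-subunit RNA, was at 3189 and 3479 against 2838 in both NC libraries (log2 change 0.23, limma, adjusted p = 0.103). The other 8 genes, Nop14, Wdr43, Wdr75, Utp15, Heatr1, Noc4l, Nat10 and Ltv1, had log2 changes from -0.17 to 0.19, and for each the DZNep libraries overlapped those of NC.

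The large subunit had 4 of 10 genes that rose with DZNep. Nop16 (chr13:54584185-54590090) was at 3160 and 3089 with DZNep, against 1559 and 2095 in NC (0.79 ± 0.15, SE, limma, adjusted p = 0.00175). Rrs1 (chr1:9545408-9547455), which helps to place a small ribosomal RNA in the subunit, was at 6460 and 4622 against 3078 and 3261 (0.79 ± 0.13, SE, limma, adjusted p = 0.000926). Ppan was at 9169 in both DZNep libraries against 5217 and 7218 (0.58 ± 0.16, SE, limma, adjusted p = 0.0182). For these 3 assembly factors no library of another group reached the lower DZNep value. Noc2l, which accompanies early precursors of the subunit, was at 7457 and 8106 against 6498 and 6364, a small change (0.27 ± 0.09, SE, limma, adjusted p = 0.036) that also set both DZNep libraries above the other 20. Noc3l was at 2115 and 979 against 856 and 923 (log2 change 0.69 ± 0.26, SE, limma, adjusted p = 0.0673), a difference carried mostly by 1 library. Nop2, an RNA methyltransferase, was at 7573 and 7069 against 5055 and 6097 (log2 change 0.40, limma, adjusted p = 0.114). Bop1, Pes1 and Wdr12, which form a complex required for large-subunit maturation, had log2 changes of -0.18, 0.02 and 0.29, and Ddx18, an RNA helicase, had one of 0.32. Bop1 was the only one of these 4 whose DZNep libraries did not overlap those of NC, lying below them at 4100 and 4364 against 4496 and 5107.

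**Figure D2:**
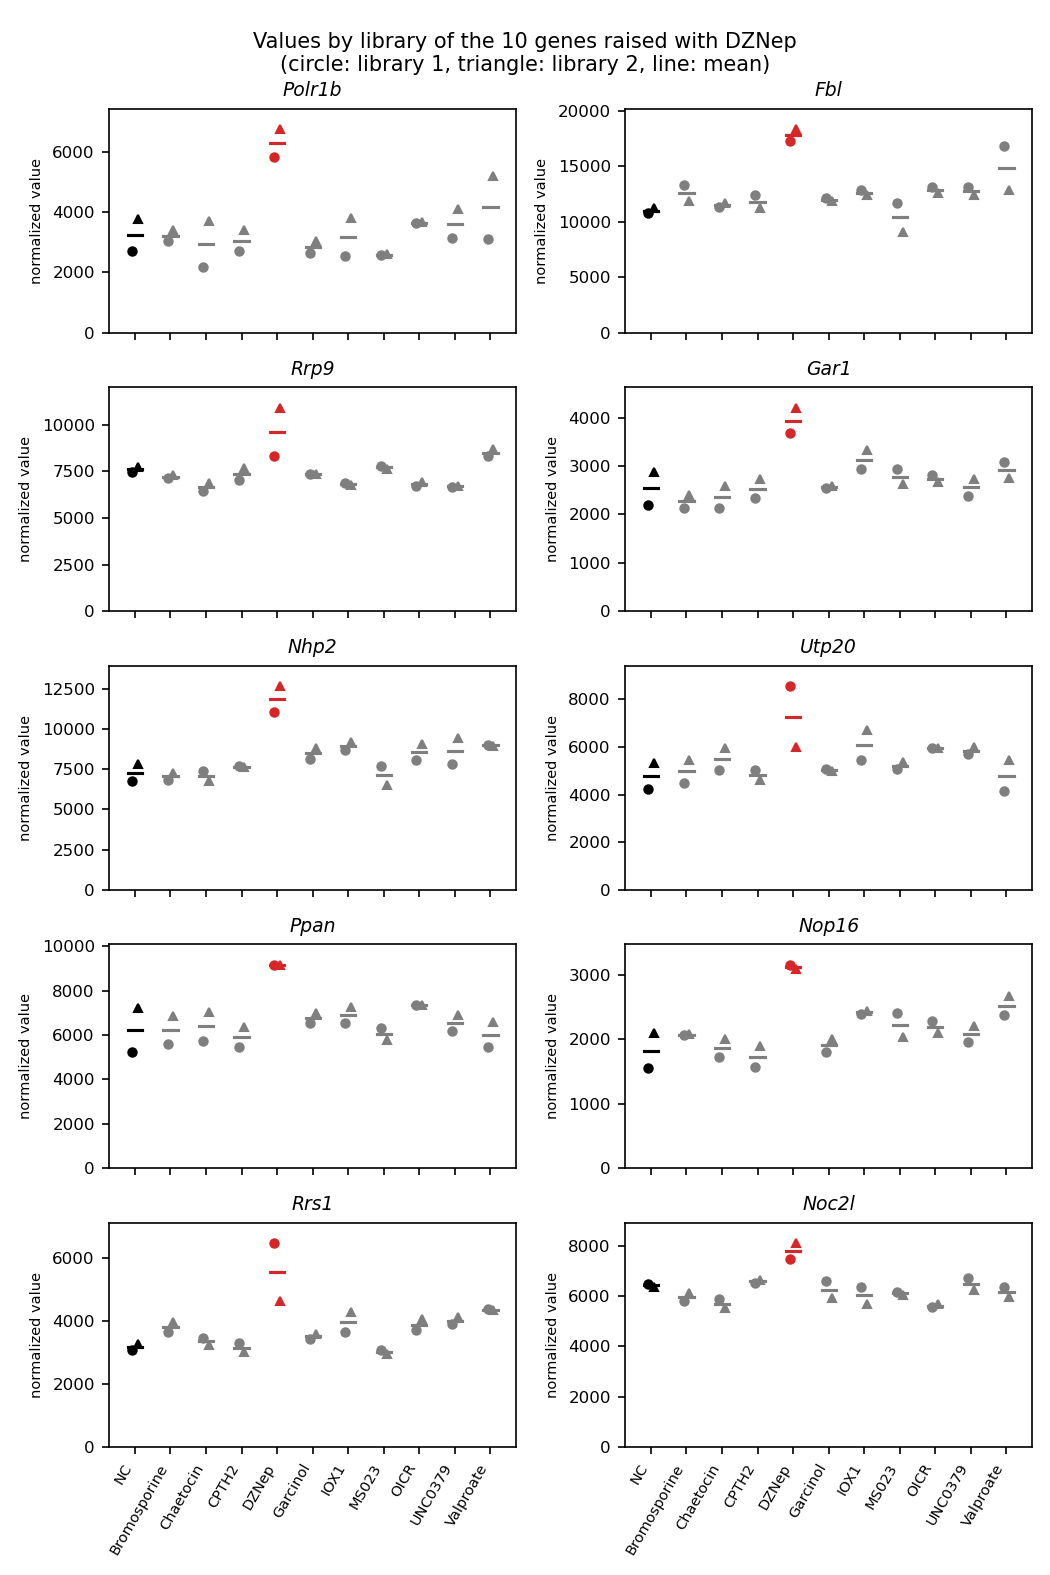
Normalized values (vertical axis, linear from 0) of the 10 genes that rose with DZNep, in each of the 22 libraries by group (horizontal axis). Circles are libraries numbered 1, triangles libraries numbered 2, lines the mean of the 2, and DZNep is in red and NC in black. For Polr1b, Fbl, Gar1, Nhp2, Ppan, Nop16, Rrs1 and Noc2l both DZNep libraries sit above all others, and for Rrp9 and Utp20 1 DZNep library does not.

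The count of 10 depended on the fit and on single libraries. In a fit of only the DZNep and NC libraries, 0 of the 40 genes passed (limma), beside 2.57% of all genes tested that were higher, and without NC replicate 1 the count fell to 4, beside 5.1%. Fbl, Nhp2, Nop16 and Rrs1 passed without any 1 of the 4 libraries. Without NC replicate 1, the adjusted p (limma) was 0.0978 for Gar1, 0.214 for Polr1b, 0.189 for Rrp9, 0.254 for Utp20, 0.232 for Ppan and 0.120 for Noc2l. Leaving out NC replicate 2 also ended the call of Rrp9 (0.0844) and Noc2l (0.127). Without DZNep replicate 1 those of Polr1b (0.0544), Utp20 (0.254) and Ppan (0.0641) were lost, and without DZNep replicate 2 those of Polr1b (0.108), Rrp9 (0.327), Ppan (0.0575) and Noc2l (0.161). Against all 20 other libraries, a comparison that does not rest on NC alone, both DZNep libraries lay above for 12 of the 40 genes and below for 0, beside 8.85% and 8.52% of all genes tested. The 12 were Polr1a, Polr1b, Mybbp1a, Fbl, Gar1, Nhp2, Rrp12, Bysl, Ppan, Nop16, Rrs1 and Noc2l, that is 3 genes of ribosomal RNA transcription, 1 of the box C/D class, 2 of the box H/ACA class, 2 of the small subunit and 4 of the large subunit.

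DZNep was also set directly against Valproate and Bromosporine, the other compounds with most changes over all genes. Against Valproate, 8 of the 40 genes were higher with DZNep and 1 was lower (all genes: 10.8% higher and 12.4% lower, 23.2% in either direction). Polr1a was at 4100 and 5996 with Valproate, so that the DZNep values of 7587 and 7776 were higher by 0.63 ± 0.18 (SE) on the log2 scale (limma, adjusted p = 0.0241). Nob1 was at 2616 and 2325 with Valproate, and its DZNep values of 3189 and 3479 were higher by 0.43 ± 0.10 (SE, limma, adjusted p = 0.00615). Bop1 went the other way, at 5065 and 6127 with Valproate against 4100 and 4364 with DZNep (-0.40 ± 0.11, SE, limma, adjusted p = 0.0166). The other genes higher with DZNep were Mybbp1a, Gar1, Nhp2, Utp20, Ppan and Noc2l, with log2 differences from 0.34 to 0.61. Fbl, Nop16, Rrs1, Rrp9 and Polr1b, which rose with DZNep against NC, did not pass in this direct comparison. Without Valproate replicate 1, of these 9 genes Nob1, Bop1 and Noc2l still passed, and only Nob1 passed in every alternative tried.

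Against Bromosporine, 11 of the 40 genes were higher with DZNep and 0 were lower (all genes: 13.1% higher and 14.8% lower, 27.9% in either direction). They were the 10 genes that rose against NC and Mybbp1a, which was at 19201 and 19777 with Bromosporine and at 26685 in both DZNep libraries (0.45 ± 0.11, SE, limma, adjusted p = 0.00668). Gar1 was at 2141 and 2409 with Bromosporine and differed by 0.79 ± 0.15 (SE, limma, adjusted p = 0.00147), and Nhp2 was at 6858 and 7290 and differed by 0.74 ± 0.12 (SE, limma, adjusted p = 0.000588). The comparisons with NC and with Bromosporine share the DZNep libraries and are not independent of each other. Mybbp1a, Gar1, Nhp2 and Nop16 passed in every alternative tried, while each of the other calls was lost in some fit that left out a single library. Valproate and Bromosporine differed for 1 of the 40 genes (all genes: 15.4% in either direction, 8.35% higher and 7.04% lower with Valproate). Pes1 was at 9540 and 8842 with Valproate and at 7069 and 7573 with Bromosporine (0.33 ± 0.10, SE, limma, adjusted p = 0.0397), and this call was lost without any 1 of these 4 libraries (adjusted p from 0.0694 to 0.200). In these 3 direct comparisons 0 of the 40 genes also passed the fold limit, beside 10.8%, 14.8% and 8.64% of all genes in the order given.

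MS023 and Valproate each had 1 gene past the threshold against NC. Ltv1, an assembly and export factor of the small subunit, was at 2682 and 2348 with MS023 and at 1722 and 1989 in NC (0.44 ± 0.11, SE, limma, adjusted p = 0.04995). Both MS023 libraries lay above all of the other 20, whose highest value was 2219 in a Garcinol library. Of all genes tested, 2.21% passed with MS023 in either direction, with 0.863% higher and 1.34% lower. Rrs1 was at 4364 and 4325 with Valproate (0.46 ± 0.13, SE, limma, adjusted p = 0.044), and only the DZNep libraries were higher. Of all genes tested, 10.3% passed with Valproate in either direction, with 5.13% higher and 5.18% lower, so that a single gene of 40 lies under the background. Neither call held when any 1 of its 4 libraries was left out, with an adjusted p from 0.0677 to 0.363 for Ltv1 and from 0.115 to 0.203 for Rrs1.

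With the other 7 compounds, 0 of the 40 genes had an adjusted p under 0.05 (limma). At an unadjusted p under 0.05 there were 5 with IOX1, 3 with UNC0379, 2 with OICR, 1 with Bromosporine, 1 with Garcinol, 0 with Chaetocin and 0 with CPTH2. Of all genes tested, 12.4% had such an unadjusted p with IOX1, 6.08% with UNC0379, 10.7% with OICR, 19.0% with Bromosporine, 3.62% with Garcinol, 4.72% with Chaetocin and 0.944% with CPTH2. The share of all genes with an adjusted p under 0.05 was 5.4% with Bromosporine, 0.637% with OICR, 0.127% with IOX1, 0.0174% with Chaetocin, 0.00579% with CPTH2 and with Garcinol, and 0% with UNC0379. Ncl had the highest change of the 40 genes with 6 compounds, and passed the test with none of them. It was at 76216 and 59584 with IOX1 (log2 change 1.00 ± 0.51, SE, limma, adjusted p = 0.449), at 76216 and 49540 with Chaetocin (0.87), at 59584 and 49540 with Garcinol and with MS023 (0.69 in each), at 54023 in both libraries with Bromosporine (0.68) and at 67756 and 36708 with UNC0379 (0.57). In each of these groups the higher library, at least, lay above both NC libraries at 36708 and 30913, and with all of the 6 but UNC0379 no library was below 49540. The 6 comparisons share these NC libraries and are not independent of each other, and the SE of Ncl was 0.51 in each.

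The remaining extremes were smaller. The highest change with OICR was that of Utp20, at 5935 in both libraries (log2 change 0.32, limma, adjusted p = 0.592), with Valproate that of Nop16, at 2373 and 2671 (0.48, limma, adjusted p = 0.0541), and with CPTH2 that of Fbl, at 12371 and 11215 (0.10, limma, adjusted p = 1). The most negative changes were those of Wdr12 with Bromosporine (-0.41), Chaetocin (-0.48) and UNC0379 (-0.22), Polr1a with Valproate (-0.47), IOX1 (-0.34) and Garcinol (-0.24), Polr1b with MS023 (-0.30), Noc2l with OICR (-0.20) and Noc3l with CPTH2 (-0.15). None of these negative changes passed the test. The median change of the 40 genes was 0.17 with IOX1, 0.15 with UNC0379, 0.09 with OICR, 0.08 with Garcinol and with Valproate, 0.04 with Chaetocin, 0.01 with Bromosporine, 0.00 with MS023 and -0.04 with CPTH2.

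A single F test over the 11 groups, which does not depend on the reference, was passed by 9 of the 40 genes (limma, adjusted p under 0.05), and by 29.7% of all genes tested. They were Rrs1 (adjusted p = 0.00636), Nhp2 (0.00711), Nop16 (0.0121), Fbl (0.0168), Gar1 (0.0277), Rrp9 (0.0277), Nob1 (0.0287), Noc2l (0.0327) and Ltv1 (0.0479). Nob1 entered without a call against NC. Its lowest values were the 2 Valproate libraries (2616 and 2325) and its highest the 2 IOX1 libraries (3827 and 3502), with the IOX1 and DZNep libraries all above both NC libraries. Bop1 was the next gene in this order (adjusted p = 0.074). It ranged from 3842 in an IOX1 library to 6127 in a Valproate library, and its IOX1, MS023 and DZNep libraries all lay below both NC libraries.

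Other genes of the pathway were read from lists written from general knowledge, with earlier results of these data known. Of 112 further ribosome biogenesis genes, 40 rose and 2 fell with DZNep (35.7% and 1.79%, beside 10.7% and 12.8% of all genes), with a median log2 change of 0.34. By role, 4 of 11 genes of RNA polymerase I transcription, 13 of 42 of the small subunit, 17 of 46 of the large subunit and 6 of 13 of snoRNPs and modification rose. Of these, 2 also passed the fold limit. Cd3eap, a subunit of RNA polymerase I, was at 2088 and 1609 against 771 and 1019 in NC (log2 change 1.05, limma, adjusted p = 0.00335), and Nop10, the smallest core protein of box H/ACA snoRNPs, was at 4302 and 4378 against 1890 and 2479 (log2 change 1.00, limma, adjusted p = 0.000855). The 2 that fell, named after their values were seen, were Mettl5, an RNA methyltransferase (-0.75), and Ftsj3, which methylates the precursor (-0.44). Without NC replicate 1, 9 rose and 0 fell (all genes: 5.1% and 6.44%), and without DZNep replicate 1, 25 rose and 2 fell (8.26% and 10.8%). With adjustment over all 10 contrasts, 20 rose and 0 fell (6.18% and 7.69%), and in the fit of only DZNep and NC, 1 rose and 0 fell (2.57% and 1.55%). With Valproate 7 of the 112 rose and 1 fell (all genes: 5.13% higher and 5.18% lower). With Bromosporine (all genes: 1.61% higher and 3.79% lower) Ddx55 alone rose (845 and 800 against 430 and 446, log2 change 0.91, limma, adjusted p = 0.0073). With the other 7 compounds 0 of the 112 passed (limma), beside 0% (UNC0379) to 2.21% (MS023) of all genes. An unadjusted p under 0.05 was found for 0 to 16 of the 112 with these compounds, beside 0.944% (CPTH2) to 15% (MS023) of all genes.

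Genes for ribosomal proteins and for hosts of small nucleolar RNAs were counted in the same way. With DZNep, 10.7% of all genes were higher and 12.8% lower. Of 81 cytosolic ribosomal protein genes, 3 rose and 2 fell with DZNep (3.7% and 2.47%), with a median of 0.00. The 81 genes were taken by the pattern of their symbols, which also takes in related genes such as Rpl3l and Rps27l. Rpl3l, at 12 and 22 against 72 and 90 in NC, was 1 of the 2 that fell, and Rps27l was 1 of the 3 that rose. Of 14 host genes of small nucleolar RNAs, 2 rose and 5 fell with DZNep (14.3% and 35.7%), with a median of -0.51. Snhg5 was at 1098 and 1547 against 2643 and 3169 in NC (-1.15 ± 0.18, SE, limma, adjusted p = 0.000611) and Snhg4 at 588 and 526 against 983 and 1283 (-1.01 ± 0.17, SE, limma, adjusted p = 0.00093). Snhg15 went the other way, at 1040 and 1159 against 520 and 561 (1.02 ± 0.20, SE, limma, adjusted p = 0.00268). Snhg17 also rose (0.40), and Gas5, Dancr and Snhg3 also fell (-0.95, -0.80 and -0.79). Fewer host genes passed as lower without DZNep replicate 2. In the fit of only DZNep and NC 0 of 13 passed (limma), beside 2.57% higher and 1.55% lower of all genes. Ribosomal protein genes that passed with other compounds included Rpl5 with MS023 (3842 and 3018 against 1352 and 1697, log2 change 1.17, limma, adjusted p = 0.00503) and Rpl6 with OICR (33781 and 32104 against 59550 and 67722, -0.95, limma, adjusted p = 0.00397). Ribosomal protein genes have many near-identical processed copies, so these values are uncertain.

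**Figure D3:**
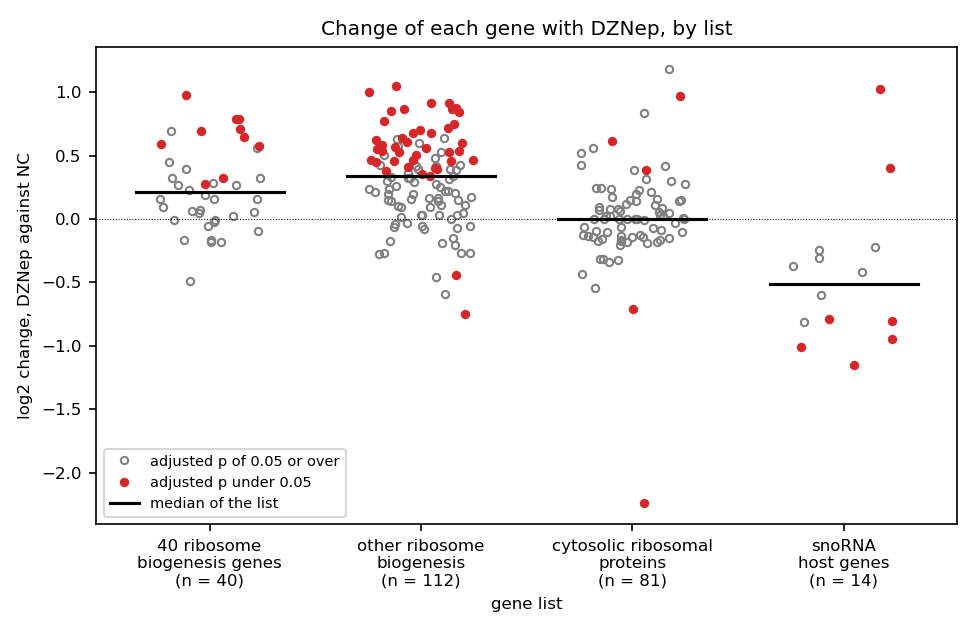
Log2 change with DZNep against NC (vertical axis) of each gene of 4 lists (horizontal axis), with genes of adjusted p under 0.05 filled in red (limma) and a line at the median of the list. The medians stand at 0.21 for the 40 genes (0.09 without DZNep replicate 1), 0.34 for 112 other ribosome biogenesis genes, 0.00 for 81 ribosomal protein genes and -0.51 for 14 host genes of small nucleolar RNAs.

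Myc, whose protein activates many genes of this pathway, was low in NC, at 4 and 19, and was at 230 and 161 with DZNep (log2 change 4.27 ± 0.95, SE, limma, adjusted p = 0.00542), above all of the other 20 libraries, whose highest was 89 with Bromosporine. Without NC replicate 1, and in the fit of only DZNep and NC, 0 of 4 genes of the Myc family passed. Mycn, another member of the family, was at 5048 and 3524 with DZNep, against 3525 and 2625 in NC (log2 change 0.47, limma, adjusted p = 0.233), and at 5162 and 5429 with Valproate (0.80, limma, adjusted p = 0.0851). The part of Myc in the changes of the 40 genes was not tested.

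Some markers of the stem cell and of other cell types also passed the test with DZNep. Of all genes tested, 10.7% were higher and 12.8% lower with DZNep, and the marker lists are too short to be set apart from these shares. The summed value of 10 stem cell markers was 213620 to 214081 in NC and 275811 to 284402 with DZNep, where Zfp42 and Utf1 rose and Fgf4 fell. Nanog made the largest part of the difference between these sums, at 92251 and 123367 with DZNep against 44793 and 59405 in NC, without passing the test. Tdgf1 (11541 and 8477 against 25722 and 15640) and Dppa5a (28606 and 30833 against 41903 and 39262) were lower in both DZNep libraries and did not pass either. Of the other lists, 1 of 4 primitive endoderm markers rose (Dab2) and 1 fell (Gata4), 2 of 6 mesoderm markers rose (Eomes and Kdr), 1 of 4 neuroectoderm markers fell (Sox1), 2 of 5 trophoblast markers rose (Ascl2 and Gata3) and 1 of 5 tested fibroblast markers rose (Col1a1). Their sums in NC and with DZNep were 345 to 432 and 347 to 654 for primitive endoderm, 1265 to 1383 and 1267 to 1576 for mesoderm, 1802 to 3403 and 3664 to 4621 for neuroectoderm, 2774 to 3438 and 2813 to 3003 for trophoblast, and 263 to 907 and 926 to 1056 for fibroblast. Of the defining markers only the fibroblast gene Lum was at 0 in both libraries of both groups. Pou5f1, which defines the stem cell, was at 32054 and 33724 with DZNep beside 28606 and 29454 in NC. In bulk RNA, a change in the share of a cell type and a change of RNA within each cell cannot be told apart, and the part of these markers in the results was not tested.

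Many of the 40 genes differed with the library number, but so did most of all genes tested. Over the 11 groups, libraries numbered 2 differed from those numbered 1 for 19 of the 40 genes, with 12 higher and 7 lower (limma, adjusted p under 0.05). Of all genes, 52.6% differed, 29.9% higher and 22.8% lower. This is a larger share than among the 40 genes, so the difference is not particular to them. The labels do not say what the number marks. Ncl differed by -0.64 ± 0.13 (SE) on the log2 scale (limma, adjusted p = 0.00117) and was lower in number 2 in 10 of 11 groups, with equal values in Bromosporine. Dkc1 differed by -0.59 ± 0.07 (SE, limma, adjusted p = 2.9e-05) and Nop14 by -0.31 ± 0.06 (SE, limma, adjusted p = 0.00051), and both were lower in 11 of 11 groups. Gnl3 was lower in 10 groups (-0.49), as were Nop58 (-0.26), Wdr43 (-0.22) and Polr1c (-0.15). In the opposite direction, Bysl was higher by 0.38, Wdr12 by 0.38, Polr1b by 0.36 and Wdr75 by 0.20, each in 11 of 11 groups, and Heatr1, Rrp12, Ubtf, Polr1a, Rrn3, Ppan, Nop2 and Utp15 were also higher.

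The genes that rose with DZNep and those that moved with the number overlapped in part. Polr1b and Ppan were in both sets, while Fbl, Nhp2, Gar1, Nop16, Rrs1, Rrp9, Utp20 and Noc2l did not pass for the number. Within a single number, the DZNep library exceeded the NC library of the same number for all 10 risen genes in both numbers. The log2 differences were 0.68 and 0.71 for Fbl, 0.72 and 0.70 for Nhp2, 1.02 and 0.56 for Nop16, and 1.07 and 0.50 for Rrs1. The 10 genes were chosen by their rise in these same libraries, so a rise in both numbers follows largely from that choice. Over all 40 genes the median difference was 0.36 for number 1 and -0.01 for number 2. The DZNep libraries differed from each other by more than 2-fold for Dkc1, Ncl and Noc3l, which was so for at most 1 of the 40 genes in any other group.

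**Figure D4:**
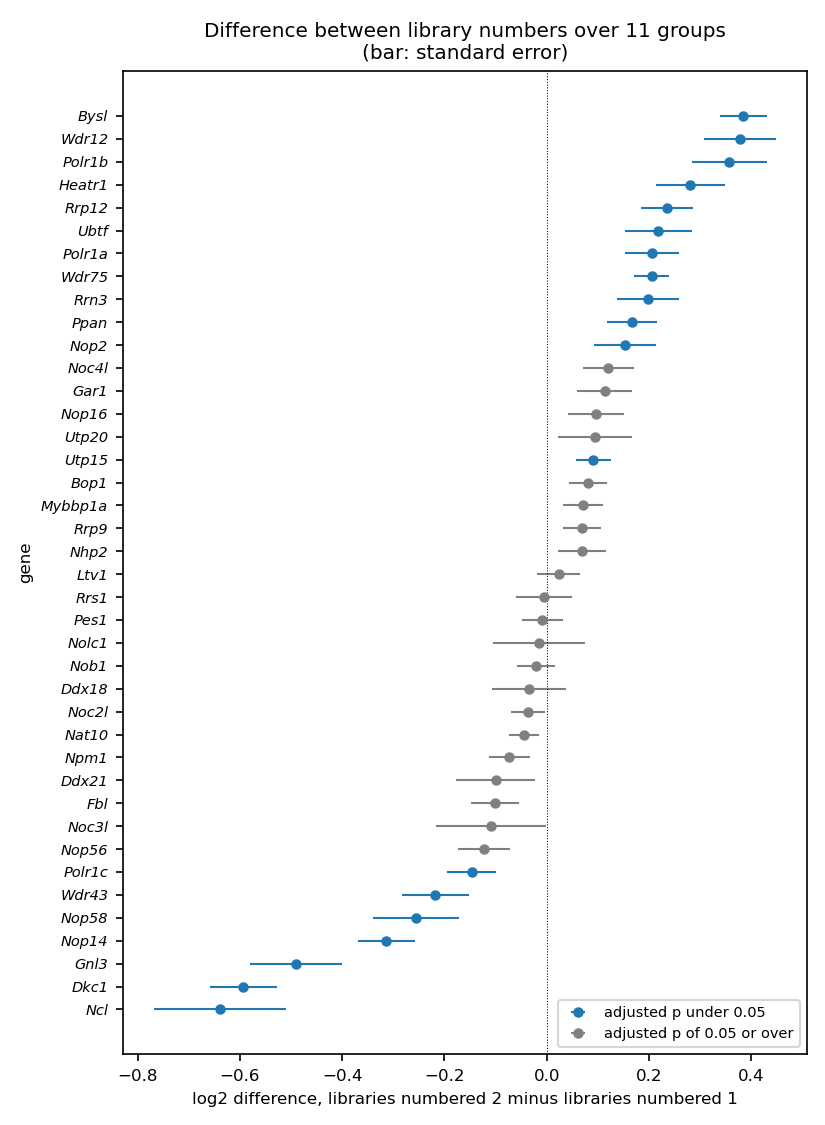
Log2 difference between libraries numbered 2 and libraries numbered 1 over the 11 groups (horizontal axis) for each of the 40 genes (vertical axis), with the standard error as a bar and an adjusted p under 0.05 in blue (limma). The differences run from -0.64 for Ncl to 0.38 for Bysl.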

How the data were processed

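Messenger RNA enriched with oligo-dT beads from E14 cells was sequenced in 22 libraries, 2 for each of 11 groups, which were taken from the treatment labels. The deposited values are scores, here read counts that the authors normalized and rounded to whole numbers. Per the labels, reads were demultiplexed with bcl2fastq, aligned to mm10 with Bowtie2 2.2.5 and counted with RSEM. The methods of the study, which do not mention the compounds, describe full-quantile normalization with EDASeq. The median (409) and the largest value (221616) were the same in all libraries, so depth is not known, some values are identical between libraries, and a change shared by most genes would be removed. A second deposited table of group means was not used.

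A gene was kept if 2 or more libraries had a value of 10 or more (17275 of 18487). The values, as log2(value + 1), were fitted with limma 3.58.1 in R 4.3.3, with 11 group means fitted to all libraries (11 residual degrees of freedom), eBayes with a trend, and two-sided p-values adjusted by the Benjamini-Hochberg method over all genes within each contrast. The threshold (fold change over 2 and adjusted p under 0.05) follows the study, which used DESeq2, and the same p without the limit on fold was added here. That tool requires raw counts, so it was not applied. For the libraries numbered 2 against 1, the number was a term beside the groups (10 residual degrees of freedom). The 40 genes and the other lists were chosen with earlier results of these data known. Values by library are given for the 10 genes with the smallest p of the F test and, chosen after their values were seen, for the genes that passed without the fold limit and for genes whose libraries stood apart. The genes with the highest and the lowest change are named for each compound, with Myc and Mycn. The fit was tested on simulated data. Positions and transcripts came from GENCODE M21, promoters from RefSeq. Python 3.11.15, pandas 2.3.3 and matplotlib 3.10.9 were used for sequences and plots. As alternatives, changed one at a time, the pseudocount was set to 10, low values were kept, a compound and NC were fitted alone, the replicate number was added as a block, values were rescaled by median ratios, each group was set against the mean of the other 10, p-values were adjusted over the 10 contrasts together, and single libraries were left out.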

Additional observations from a re-analysis of the deposited data

How the results depend on the processing

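No called result changed direction under any alternative tried. With DZNep, the count of 10 of the 40 genes became 5 with adjustment over all 10 contrasts and 0 in the fit of only DZNep and NC, which has few degrees of freedom, and ranged from 4 to 10 when 1 library was left out. With the fold limit, the count of 0 became 1 after rescaling by median ratios and ranged from 0 to 2 with 1 library left out. With MS023, the count of 1 became 2 with all other groups as reference and 0 in the fit of only MS023 and NC, and was 0 with any library left out. With Valproate, the count of 1 became 0 with adjustment over all contrasts, 2 after rescaling, 3 with the mean of all other groups as reference, 0 in the fit of only Valproate and NC, and ranged from 0 to 2 with 1 library left out. For Valproate minus Bromosporine, the count of 1 became 2 without the filter and 3 after rescaling, and ranged from 0 to 1 with 1 library left out. For DZNep minus Valproate, counts ranged from 4 to 7 with 1 library left out and from 0 to 1 with the fold limit. For DZNep minus Bromosporine, they ranged from 5 to 10 and, with the fold limit, from 0 to 3, and the latter count became 1 after rescaling. Shares of all genes are not set beside these counts, so the counts do not set the 40 genes apart from other genes. The cause of these shifts was not tested.

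The median changes that moved were those of Bromosporine (-0.019 after rescaling, -0.042 with the mean of all other groups as reference, -0.058 to 0.101 with 1 library left out), Chaetocin (-0.047 with the mean of all other groups as reference, -0.082 to 0.091 with 1 library left out), IOX1 (0.018 against that mean), UNC0379 (0.087 against that mean, 0.064 to 0.229 with 1 library left out) and Valproate (0.122 after rescaling, 0.020 against that mean, -0.008 to 0.17 with 1 library left out). The median with DZNep ranged from 0.087 to 0.262 over the alternatives, but was -0.007 between the libraries numbered 2. Rescaling moved the median of all genes by less than 0.1 in every contrast.

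With a block for the replicate number, DZNep had 16 genes, 15 higher and 1 lower (Dkc1). Of all genes, 18.8% were then higher and 24.3% lower with DZNep, beside 10.7% and 12.8% without the block. With the block, IOX1 had 2 genes, Valproate 4, Valproate minus Bromosporine 8, and the F test 22. Shares of all genes are not set beside these last counts, so the counts do not set the listed genes apart from other genes. Deviations from the group means by number were positively correlated, though weakly, in every pair of groups. The correlation was from 0.0535 to 0.298 over 55 pairs, with a median of 0.196. It was over 0.1 in 51 of them, and 0.0836 for DZNep with NC. The samples share only a number, so the pairing is not taken as part of the design. With 2 libraries in each group and depth not known, a change that was not called may still be present.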
